A study of Mus musculus with 18 samples.

Results

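The Ikaros zinc finger family comprises 5 genes in the mouse: Ikzf1 (Ikaros), Ikzf2 (Helios), Ikzf3 (Aiolos), Ikzf4 (Eos) and Ikzf5 (Pegasus). All 5 were measured, each by 1 probe set that carries a single gene symbol, among 22180 genes in all. They were taken by name, and where a gene has several such probe sets the brightest over the 18 arrays stands for it. The probe sets were 17247336 for Ikzf1 (chromosome 11), 17223985 for Ikzf2 (chromosome 1), 17268820 for Ikzf3 (chromosome 11), 17246268 for Ikzf4 (chromosome 10) and 17497044 for Ikzf5 (chromosome 7).

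These proteins bind DNA through zinc fingers near the amino terminus and pair with one another through fingers at the carboxy terminus. Ikaros, Helios and Aiolos act in lymphocytes, where they recruit chromatin remodelling and deacetylase complexes to genes and can silence or sustain them. Ikaros is required for lymphoid development and is a tumour suppressor of the T lineage in mice. Aiolos appears as lymphocytes mature, Helios is found in early T cells and in regulatory T cells, and Eos works with Foxp3 in regulatory T cells. Pegasus is the most divergent and the most widely expressed member.

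The study compared cells sorted from mouse lymphoma with healthy progenitors, on 18 arrays in 6 groups of 3. The lymphoma was taken from the thymus of moribund Lck-Cre transgene mice that had been sublethally irradiated and had received bone marrow infected with a retrovirus for NPM-ALK. This fusion kinase drives a form of large cell lymphoma in people, and per the labels its expression was limited to early T cells. Lymphoma cells were sorted by surface markers into a CLP (common lymphoid progenitor) fraction and 4 double-negative (DN) fractions, numbered DN1 to DN4 in the order of thymocyte maturation. LSK cells, the lineage-negative, SCA1-positive and KIT-positive progenitors of bone marrow, came from healthy wildtype mice aged 18 months. The design names 3 lymphomas, but the labels do not state which arrays share an animal, so the p-values measure the spread between these samples, which may in part be technical. In bulk RNA, fewer cells expressing a gene and less RNA per cell cannot be told apart.

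The lymphoma arrays as a whole and the LSK arrays bore out their broad labels. All 6 measured T cell markers were above background on every lymphoma array, with a mean level of 10.34 to 11.14 against 5.45 to 5.55 in LSK (log2 signal). The 5 measured LSK markers averaged 9.89 to 9.99 in LSK and 5.33 to 6.11 in the lymphoma. Of these, Kit, whose protein defines LSK cells, stayed near its LSK level (10.90) in DN1 (10.77) and DN2 (10.68). In the other fractions it read 8.06 to 9.43. Cd34, Flt3, Meis1 and Gata2 averaged 4.34 to 5.24 in the fractions. CLP is here the name of a sorted fraction, and its place before DN1 was not tested. It read 12.53 for the T cell marker Cd3e and 4.68 for Flt3. Ptcra, the pre-TCR alpha chain, read 8.08 in CLP, against 5.84 in DN1, 7.04 in DN2 and 8.97 in DN3. Background was gauged by olfactory receptor probe sets, whose 95th percentile lay at 5.36 to 5.71 across the arrays. LSK also differed from the lymphoma in tissue and in sex-linked RNA, and the labels give no age in months for the lymphoma mice. Xist read 10.74 and 10.00 on LSK arrays 2 and 3, against 3.55 on LSK array 1 and 3.81 to 5.03 on the lymphoma arrays. The description fields of the labels name other mice, NIPA KO for the 6 LSK and CLP arrays and Wild type for the 12 DN arrays, and the titles were followed. They also name an irradiation of 4 Gy for 12 arrays: LSK 3, CLP 1 and 2, and all of DN1, DN2 and DN3. If those fields hold, that dose and DN4 cannot be told apart.

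**Figure D1:**
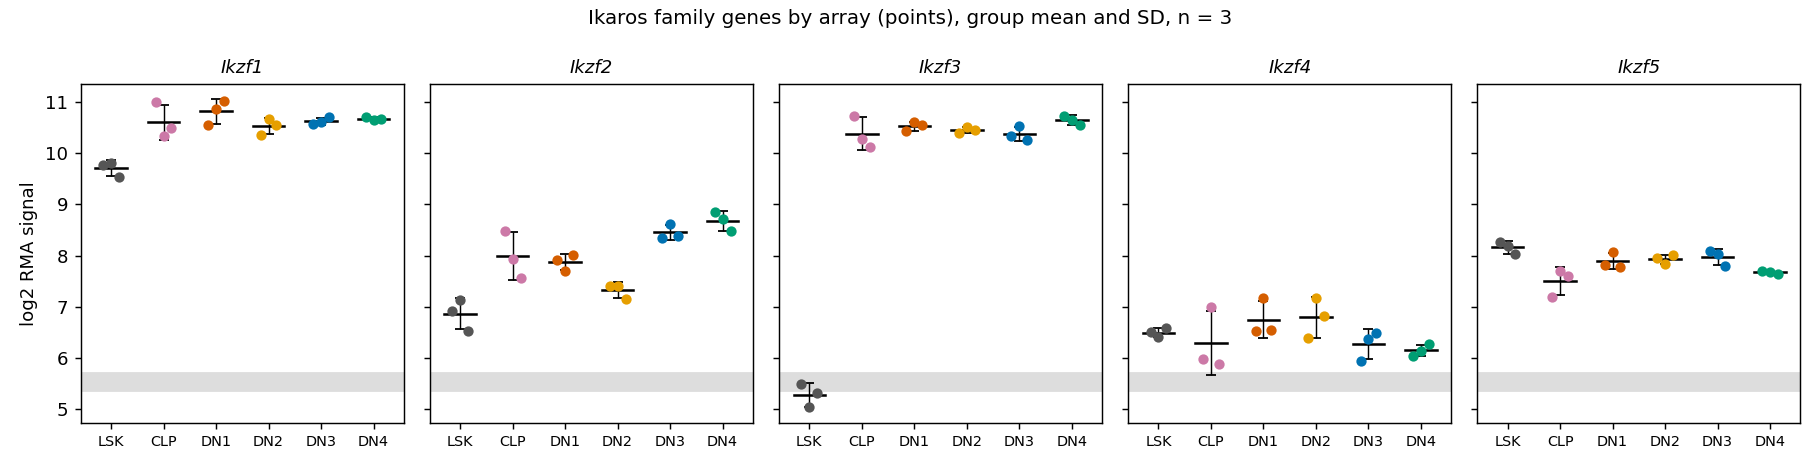
Log2 RMA signal (vertical axis) of the 5 Ikaros family genes on each array, by group (horizontal axis). Points are arrays, bars the group mean and SD (n = 3), and the grey band is the background range of 5.36 to 5.71. Ikzf3 lies at or below the band in LSK and above 10 in every lymphoma fraction, whereas Ikzf2 varies among the fractions. Heights of different genes are not comparable, since probe sets differ in response.

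The first comparison asked how the family differs between lymphoma and healthy LSK cells. The 5 fraction arrays that carry the same replicate number were averaged, which gave 3 lymphoma values to set against 3 LSK arrays. Ikzf1, Ikzf2 and Ikzf3 were higher in the lymphoma, Ikzf5 was slightly lower, and Ikzf4 did not pass the test. Thus 4 of 5 members were called at an adjusted p under 0.05, where 29% of all genes were. Among all genes 13.1% were called higher and 15.8% lower. The same 4 members had no overlap between the lymphoma values and the LSK arrays, as did 44.7% of all genes.

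Ikzf3, which encodes Aiolos, showed the widest difference in the family. It read 5.49, 5.04 and 5.32 on the 3 LSK arrays. The lymphoma arrays read 10.73, 10.28 and 10.11 in CLP, 10.43, 10.60 and 10.54 in DN1, and 10.40, 10.51 and 10.45 in DN2. They read 10.33, 10.52 and 10.26 in DN3 and 10.73, 10.65 and 10.55 in DN4. No lymphoma array came near the LSK arrays. DN4 had the highest mean, but no pair of fractions was called. It exceeded DN2 by 0.19 (adjusted p = 0.921 by limma) and DN3 by 0.27 (adjusted p = 0.99992 by limma). The lymphoma mean was 10.47 (SD 0.080, n = 3) against 5.28 (SD 0.23, n = 3) in LSK, a log2 difference of 5.19 (SE 0.13, adjusted p = 6.34e-09 by limma), which ranked 27 by p among all genes. Only 1 of the 3 LSK arrays exceeded its own background, so the fold is a lower bound. With each LSK array set to its background level where that was higher, Ikzf3 was at least 31.6-fold higher in the lymphoma.

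Aiolos is also a B cell and plasma cell factor, so markers of those cells were read beside it. The 9 measured B and plasma cell markers averaged 6.33 to 6.57 in DN1, 5.53 to 5.78 in the other fractions and 6.04 to 7.0 in LSK. Ms4a1, which encodes CD20, was below background in every group (3.37 to 3.87). Jchain, the joining chain of antibody, reached 8.60 (SD 0.18) in DN1 and 7.82 (SD 1.27) in LSK, against 4.09 to 4.45 in the other fractions. Sdc1, the plasma cell marker CD138, was higher in the lymphoma like Ikzf3, at 7.70 to 7.92 in the fractions against 5.67 in LSK (2.15, adjusted p = 8.83e-06 by limma). Cd79b, Ebf1, Prdm1, Xbp1 and Jchain were lower (adjusted p from 2.92e-06 to 0.0399), and Cd79a, Pax5 and Ms4a1 did not pass. The part of B or plasma cells in the Ikzf3 result was not tested.

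The genes whose levels ran most closely with Ikzf3 over the 18 arrays were Tnfrsf8 (r = 0.994), which encodes CD30, Cd3e (r = 0.993), a chain of the T cell receptor complex, and Zap70 (r = 0.993), the kinase recruited to that complex. These were the closest of 3128 genes whose group means span at least 1 log2 unit. The 18 points fall into LSK and lymphoma arrays, and that split sets such values. Tnfrsf8 read 5.57 in LSK and 10.20 to 10.55 in the fractions, and Zap70 read 6.0 and 10.01 to 10.37.

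Ikzf1, which encodes Ikaros itself, was already well above background in LSK and higher by about 1 log2 unit in the lymphoma. It read 9.77, 9.81 and 9.54 in LSK. The fractions read 10.99, 10.33 and 10.49 in CLP, 10.55, 10.87 and 11.02 in DN1, and 10.36, 10.67 and 10.55 in DN2. DN3 read 10.56, 10.61 and 10.70, and DN4 read 10.70, 10.64 and 10.66. The lowest lymphoma array thus stood above the highest LSK array. The difference of the lymphoma mean was 0.94 (SE 0.11, adjusted p = 1.11e-04 by limma), a 1.92-fold rise with a 95% interval of 0.70 to 1.17 on the log2 scale. The array does not report the mutations or the spliced isoforms by which Ikaros is also altered in leukaemia.

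Ikzf1 ran most closely with Arhgap15 (r = 0.947), a GTPase-activating protein for Rac, Ipcef1 (r = 0.944) and Slc9a9 (r = 0.938), a sodium-proton exchanger, over the 18 arrays. Slc9a9 read 7.83 in LSK and 10.19 to 10.87 in the fractions, and Arhgap15 read 8.16 and 10.00 to 10.39. Within the family, Ikzf1 and Ikzf3 had r = 0.905 over the 18 arrays and r = 0.614 over the 15 lymphoma arrays.

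Ikzf5, which encodes Pegasus, was lower in the lymphoma by a small margin. It read 8.27, 8.18 and 8.02 in LSK, and its lymphoma means by replicate number were 7.75, 7.86 and 7.76. The difference was -0.37 (SE 0.10, adjusted p = 0.0237 by limma), a 1.29-fold decrease. The call rested on few arrays. It was lost in 5 of the 6 analyses that left out 1 replicate, with adjusted p from 0.0516 to 0.101, and it held without LSK replicate 3 (adjusted p = 0.00951). Without the CLP fraction the difference was -0.29 (adjusted p = 0.0585).

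Ikzf4, which encodes Eos, did not pass. It read 6.51, 6.41 and 6.58 in LSK, and its lymphoma means by replicate number were 6.18, 6.77 and 6.40, which enclose the LSK values. The difference was -0.05 (SE 0.15, adjusted p = 0.849 by limma), with a 95% interval of -0.38 to 0.29. All 18 arrays read above their own background. Foxp3, the partner of Eos in regulatory T cells, was below background in every group (4.46 to 4.80).

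**Figure D2:**
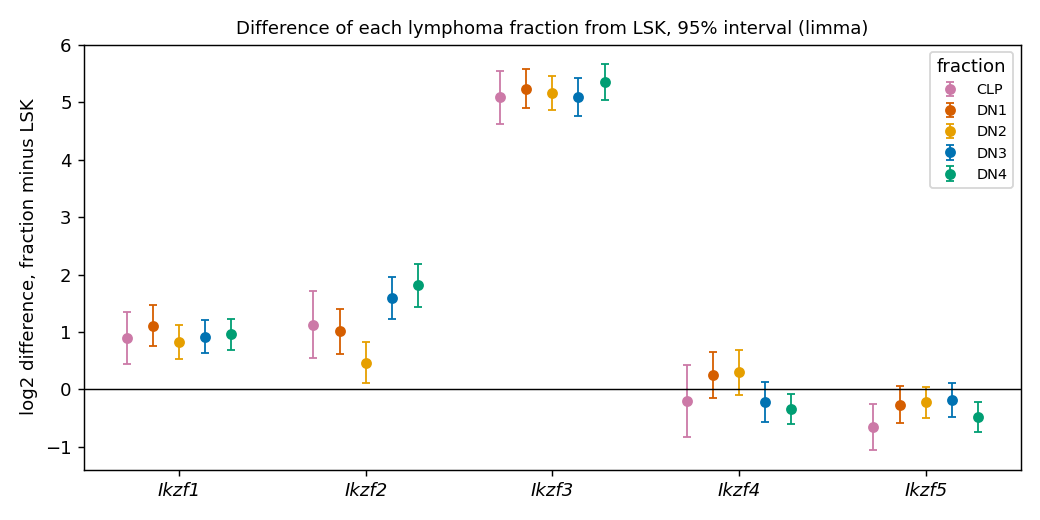
Log2 difference of each lymphoma fraction from LSK (vertical axis) for the 5 genes (horizontal axis), with unadjusted 95% intervals from limma (3 against 3 arrays). The Ikzf3 values lie between 5.09 and 5.36 and those of Ikzf1 between 0.82 and 1.10, while those of Ikzf2 run from 0.46 in DN2 to 1.81 in DN4. The 5 comparisons share the LSK arrays.

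Each fraction was then set against LSK on its own. Of all genes, 17.7% were called in CLP and 19.7% in DN1, and for DN2, DN3 and DN4 the shares were 25.4%, 24.5% and 26.6%. Ikzf1 and Ikzf3 were called higher in all 5 fractions and Ikzf2 in 4 of them, where 6.54%, 7.45%, 11.4%, 11.4% and 11.8% of all genes were called higher in CLP, DN1, DN2, DN3 and DN4. Ikzf5 was called lower in CLP and DN4, where 11.2% and 14.9% of all genes were. That makes 16 of 25 calls, and Ikzf4 accounts for none of them.

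The difference of Ikzf1 was lowest in DN2 (0.82) and highest in DN1 (1.10), with CLP at 0.90, DN3 at 0.91 and DN4 at 0.96 (adjusted p from 1.29e-04 in DN4 to 0.0137 in CLP). The CLP call was lost without LSK replicate 3 (adjusted p = 0.0628). That of Ikzf3 was 5.36 in DN4, 5.24 in DN1, 5.17 in DN2 and 5.09 in both CLP and DN3, with adjusted p of 1.16e-06 in CLP and below that elsewhere. Ikzf5 was lower in CLP (-0.66, SE 0.18, adjusted p = 0.0337) and in DN4 (-0.49, SE 0.12, adjusted p = 0.0105). In the other fractions it differed by -0.27, -0.23 and -0.19, with adjusted p from 0.214 to 0.379. The CLP call of Ikzf5 was lost in 4 of the 6 analyses without 1 replicate, up to adjusted p = 0.133 without LSK replicate 1. In DN4 the call held in all 6.

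Ikzf4 differed by -0.34 in DN4 (SE 0.12, adjusted p = 0.0587), and the DN4 arrays (6.05, 6.15 and 6.26) all lay below the LSK arrays. In this comparison the arrays of 41.9% of all genes did not overlap. In DN1 and DN2 its difference was 0.25 and 0.30 (adjusted p = 0.409 and 0.272). CLP array 2 read 7.0 against 5.98 and 5.89 on arrays 1 and 3, and 3 arrays cannot show it to be an outlier. Without CLP array 2 the CLP difference was -0.56 (adjusted p = 0.0471), and with it -0.20 (adjusted p = 0.660). DN2 likewise passed without DN2 replicate 1, at 0.50 (adjusted p = 0.0441).

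Ikzf2, which encodes Helios, was the member that varied most among the fractions. It read 6.93, 7.14 and 6.53 in LSK. The lowest lymphoma fraction was DN2, at 7.41, 7.42 and 7.15. DN1 followed at 7.92, 7.69 and 8.01, and CLP at 8.48, 7.94 and 7.56. The highest were DN3, at 8.35, 8.62 and 8.39, and DN4, at 8.85, 8.70 and 8.48. DN3 and DN4 arrays did not overlap with DN2 arrays, as was so for 16.2% and 19.5% of all genes. DN4 did not overlap with DN1 (21.3% of all genes), nor DN2 with LSK (39.5% of all genes). CLP spanned the range from DN1 to DN3.

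Against LSK the lymphoma mean of Ikzf2 was higher by 1.20 (SE 0.16, adjusted p = 2.89e-04 by limma), a 2.30-fold rise. By fraction the difference was 1.81 in DN4 (SE 0.17, adjusted p = 8.56e-06), 1.59 in DN3 (SE 0.17, adjusted p = 3.13e-05), 1.13 in CLP (SE 0.25, adjusted p = 0.0154) and 1.01 in DN1 (SE 0.18, adjusted p = 0.00175). In DN2 it was 0.46 (SE 0.16, adjusted p = 0.0586), which did not pass, although the arrays did not overlap, as was so for 39.5% of all genes. The DN2 value passed with the filter on dim genes (adjusted p = 0.0433) and without LSK replicate 2 (0.60, adjusted p = 0.0228). The CLP call was lost without LSK replicate 1 (adjusted p = 0.0549) or LSK replicate 3 (adjusted p = 0.0674).

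Whether the fractions differ from one another was tested in 1 model of the 15 lymphoma arrays. Of the 5 members only Ikzf2 passed the F test (adjusted p = 8.54e-04 by limma), where 7.88% of all genes did. Its group means span 1.35 log2 units. Ikzf1 (adjusted p = 0.834), Ikzf3 (0.725), Ikzf4 (0.380) and Ikzf5 (0.180) did not pass. Over all 10 pairs of fractions, the 95% intervals of Ikzf1 reached at most 0.63 log2 units from 0 and those of Ikzf3 at most 0.59. For Ikzf5 they reached 0.78 and for Ikzf4 1.21, so a difference of up to that size between some fractions remained possible.

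Among the 10 pairs, Ikzf2 was called in 3. DN4 exceeded DN2 by 1.35 (SE 0.19, adjusted p = 2.87e-04), a 2.55-fold difference, and DN3 exceeded DN2 by 1.13 (SE 0.19, adjusted p = 0.00184), or 2.18-fold. DN4 exceeded DN1 by 0.80 (SE 0.19, adjusted p = 0.0153). The share of all genes called was 2.65%, 2.45% and 5.61% in these pairs, and arrays did not overlap for 19.5%, 16.2% and 21.3% of all genes. The step from DN2 to DN3 was 0.94, 1.20 and 1.24 within replicate numbers 1, 2 and 3. That from DN1 to DN2 was -0.51, -0.28 and -0.86, and it did not pass (adjusted p = 0.299). DN3 and DN4 differed by 0.22, with a 95% interval of -0.18 to 0.63.

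The other pairs of Ikzf2 did not pass. In the pairs without a call for any member, 7.78% of all genes were called between DN1 and CLP, 2.87% between DN2 and CLP, 1.1% between DN3 and CLP, and 1.07% between DN4 and CLP. The share was 1.35% between DN2 and DN1, 6.7% between DN3 and DN1 and 0.00451% between DN4 and DN3. The values of Ikzf2 there were DN2 minus CLP (-0.67, adjusted p = 0.0762), DN3 minus DN1 (0.58, adjusted p = 0.0937), DN4 minus CLP (0.68, adjusted p = 0.0991), DN3 minus CLP (0.46, adjusted p = 0.320) and DN1 minus CLP (-0.12, adjusted p = 0.802). CLP was the widest group for this gene (SD 0.46). Without CLP replicate 1, which was the highest CLP array, DN4 minus CLP was 0.93 (adjusted p = 0.00543), DN3 minus CLP 0.71 (adjusted p = 0.0325) and DN3 minus DN1 passed at adjusted p = 0.0211. Without CLP replicate 3, DN2 minus CLP was -0.88 (adjusted p = 0.00936) and DN3 minus DN1 passed (adjusted p = 0.0351). The call of DN4 over DN1 was lost without DN1 replicate 2 (adjusted p = 0.0797), DN4 replicate 1 (adjusted p = 0.0876) or DN4 replicate 2 (adjusted p = 0.0633). The 2 pairs with DN2 and the F test held in all 15 analyses that left out 1 array.

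**Figure D3:**
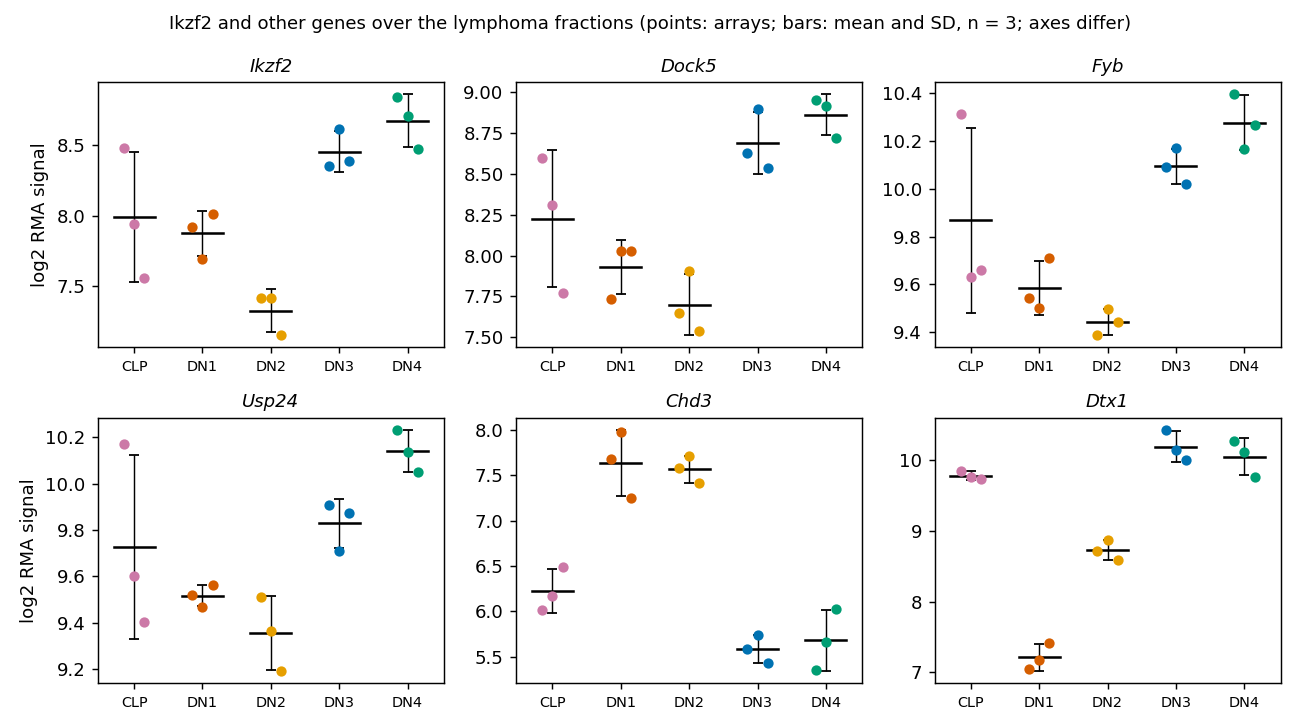
Log2 RMA signal (vertical axes, which differ by panel) of Ikzf2, of the 3 genes most like it over the 15 lymphoma arrays (Dock5, Fyb, Usp24), and of Chd3 and Dtx1, by lymphoma fraction (horizontal axis). Points are arrays and bars the mean and SD (n = 3). Ikzf2 is lowest in DN2 (7.33) and highest in DN4 (8.68), while Chd3 runs from 7.63 in DN1 to 5.58 in DN3.

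Over the 15 lymphoma arrays the genes most like Ikzf2 were Dock5 (r = 0.952), a guanine nucleotide exchange factor of the DOCK family, Fyb (r = 0.936), an adaptor of T cell receptor signalling, and Usp24 (r = 0.920), a deubiquitinase. Like Ikzf2 each had its lowest mean in DN2 and its highest in DN4: Dock5 7.70 and 8.86, Fyb 9.44 and 10.28, Usp24 9.36 and 10.14. CLP was the group with the widest spread for all 3 (SD 0.39 to 0.42). Over the 18 arrays the closest genes were Tnfrsf19 (r = 0.951), a TNF receptor, Trib2 (r = 0.930), a pseudokinase, and again Usp24 (r = 0.920). Tnfrsf19 read 6.16 in LSK, 7.19 in DN2, 8.78 in DN3 and 8.85 in DN4. For Ikzf4 the closest genes were Ccnj (r = 0.771), Scp2 (0.769) and Vmp1 (0.707), and for Ikzf5 they were Swsap1 (0.888), Naglu (0.877) and Rdh11 (0.867). CLP was again the widest group for these genes (SD 0.57 to 0.93), so single CLP arrays weigh in these values. Scp2, like Ikzf4, read highest in CLP on array 2 (7.80), and Swsap1, like Ikzf5, lowest on array 1 (5.87).

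Regulatory T cells carry Helios, so their markers were read beside it. The 6 markers averaged 7.07 to 7.12 in DN2 and 7.28 to 7.36 in DN3, and 6.65 to 6.74 in DN4, where Ikzf2 was highest. Il2ra, one of the 6 and the gene of the CD25 used in the sort, read 11.81 in DN2 and 12.02 in DN3 against 8.71 in DN4. Foxp3 was below background in every fraction. Nrp1, neuropilin 1, ran in the order of Ikzf2, at 8.83 in DN4, 8.77 in DN3, 8.66 in CLP, 8.11 in DN1 and 8.01 in DN2 (adjusted p = 9.19e-05 by limma, F test). Tnfrsf18 was instead highest in DN2 (8.04) and lowest in DN4 (7.59), and did not pass (adjusted p = 0.536, F test). Ctla4 (4.37 to 4.98, highest in DN1) and Lrrc32 (5.78 to 5.93) did not pass either (adjusted p = 0.0574 and 0.972, F test). The part of such cells in the Ikzf2 result was not tested.

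Ikaros family proteins act through other proteins, and those lists were read next. Of 20 measured corepressor and remodelling partners, 2 were called higher and 2 lower in the lymphoma mean, or 20% of the list where 29% of all genes were called. The list median was 0.06 against 0.05 over all genes. Chd3, an ATPase of the NuRD complex, fell by 1.80 (SE 0.12, adjusted p = 2.70e-06), and Ctbp2, a corepressor that Ikaros and Eos bind, fell by 1.92 (SE 0.12, adjusted p = 1.93e-06). Rbbp4, a histone-binding subunit of NuRD, rose by 0.42 (adjusted p = 0.0252), and Mta2, another subunit, by 0.41 (adjusted p = 0.0326). The count of 4 became 2 without LSK replicate 2. Chd4, the main NuRD ATPase in lymphocytes, and the deacetylases Hdac1 and Hdac2 did not pass.

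Chd3 was also the 1 partner of 20 that differed among the fractions (adjusted p = 7.83e-07 by limma, F test), where 7.88% of all genes did. It read 8.42, 8.45 and 8.13 in LSK, 7.68, 7.97 and 7.24 in DN1 and 7.57, 7.71 and 7.41 in DN2. In CLP it read 6.01, 6.17 and 6.49. In DN3 it read 5.59, 5.73 and 5.43, and in DN4 5.36, 5.66 and 6.03. LSK, DN1 and DN2 were thus high, CLP lower and DN3 and DN4 near background. DN2 and DN3 did not overlap, as was so for 16.2% of all genes. Chd3 fell by 1.98 from DN2 to DN3 (SE 0.20, adjusted p = 6.02e-06) to a level near background. Over the 15 lymphoma arrays its level and that of Ikzf2 had r = -0.829. Ctbp2, which did not pass the F test (adjusted p = 0.205 by limma), had a like value with Ikzf2 (r = -0.826). Its fraction means of 5.48 to 5.91 lay near background.

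**Figure D4:**
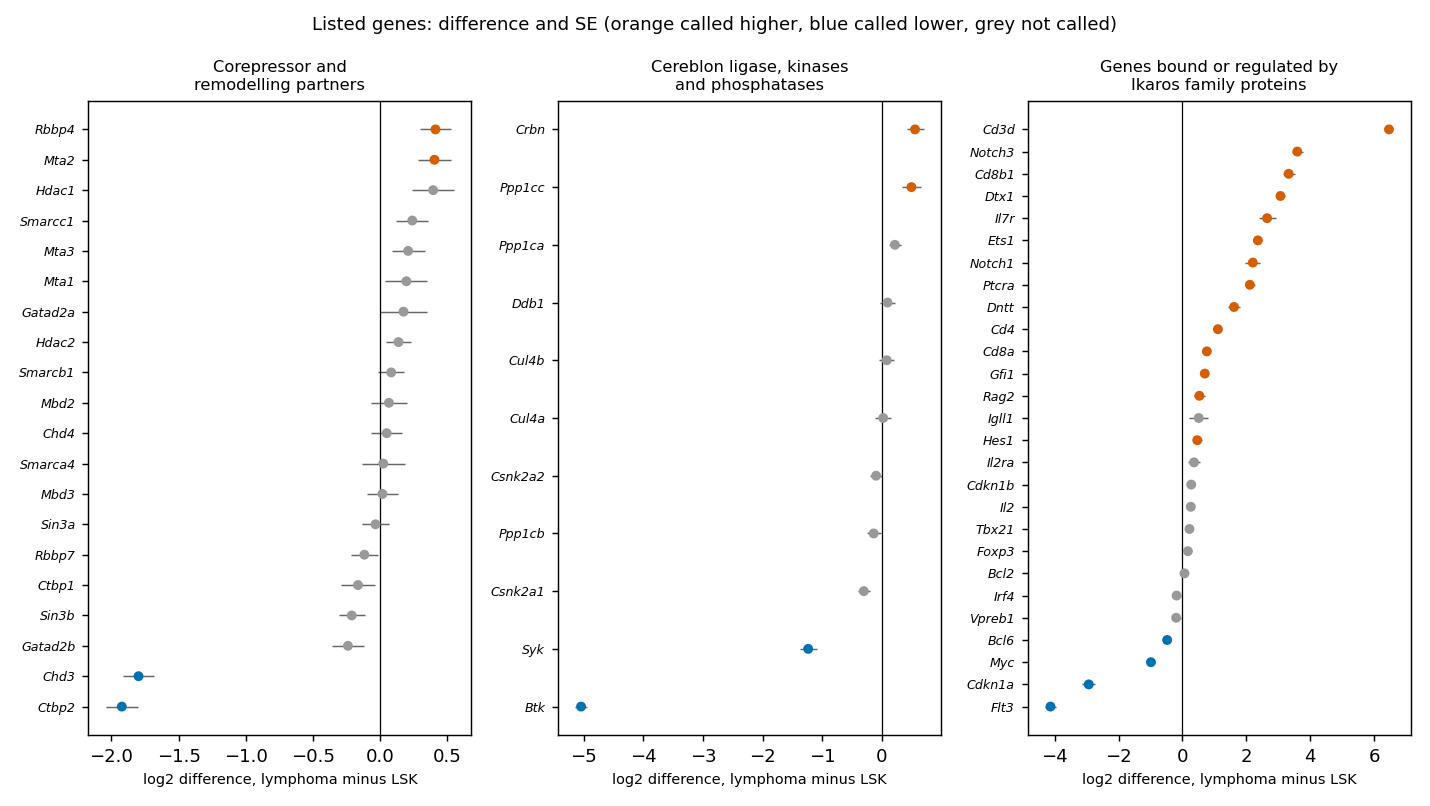
Log2 difference of the lymphoma mean from LSK (horizontal axes, which differ by panel) for each gene of the 3 lists, with its SE (3 values against 3). Orange marks genes called higher, blue genes called lower and grey those not called. Chd3 and Ctbp2 stand below the other 18 partners, and Btk below the other genes of its list.

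The cereblon ligase is the complex that drugs of the thalidomide class turn against Ikaros and Aiolos in human cells. Casein kinase 2, protein phosphatase 1, Syk and Btk act on Ikaros as a phosphoprotein. Of 11 measured genes in this list 2 rose and 2 fell, or 36.4% of the list where 29% of all genes were called. The list median was 0.02 against 0.05 over all genes. Crbn, the substrate receptor cereblon, rose by 0.56 (SE 0.14, adjusted p = 0.0157), from 7.80, 7.63 and 8.16 in LSK to group means of 8.14 to 8.63. CLP arrays 1 and 2 (7.96 and 7.89), DN2 array 1 (8.15) and DN3 array 3 (8.14) lay within the LSK range, and in CLP alone Crbn did not pass (0.27, adjusted p = 0.450). Ppp1cc, a phosphatase subunit, rose by 0.50 (adjusted p = 0.0385). Ddb1, the adaptor of the ligase, differed by 0.09 (adjusted p = 0.593). Btk, a kinase of B and myeloid cells, fell to below background on all 15 lymphoma arrays and was at least 13.4-fold lower with those arrays set to their background (adjusted p = 2.79e-09), and Syk fell by 1.24 (adjusted p = 1.28e-04). Macrophage and granulocyte markers moved with Btk, at 7.35 to 7.92 in LSK and 4.59 to 5.19 in the lymphoma, and their part in the result was not tested. Syk was the only gene of this list past the F test (adjusted p = 0.0304), which 7.88% of all genes passed.

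The last list holds genes that Ikaros family proteins are known to bind or regulate in lymphocytes. Of 27 measured genes, 14 rose and 4 fell against LSK, 18 in all where 29% of all genes were called, with a median of 0.51 against 0.05. Many are T lineage genes that separate T cells from progenitors, and Il2ra, Cd4, Cd8a and Il7r encode proteins used in the sort. Rag2 and Cd8a were called higher without any group mean above the background range of 5.36 to 5.71. Rag2 read 4.01 in LSK and 3.67 to 5.46 in the fractions, and Cd8a 4.45 and 4.76 to 5.45. Cd3d rose by 6.46 (adjusted p = 3.41e-09), Flt3, a progenitor receptor, fell to below background on all 15 lymphoma arrays and was at least 11.5-fold lower (adjusted p = 1.37e-07) and Dtx1, a Notch target, rose by 3.07 (adjusted p = 2.44e-07). Notch3 (3.59) and Notch1 (2.20) rose, and Hes1, a Notch target that Ikaros represses in thymocytes, rose by 0.46 (adjusted p = 0.0310).

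Among the fractions 13 of these 27 genes passed the F test, where 7.88% of all genes did. The 13 include Il2ra, Cd4, Cd8a and Il7r, whose proteins were used in the sort, so the sort bears on this count. Rag2 and Cd8a, with no group mean above the background range, are also among the 13. The smallest adjusted p values were those of Il2ra (1.67e-11), Ptcra, the pre-TCR alpha chain (1.32e-09), and Dtx1 (2.30e-09). From DN1 to DN4 the means of Ptcra were 5.84, 7.04, 8.97 and 9.02, and those of Dtx1 were 7.21, 8.73, 10.19 and 10.05. Ptcra rose by 1.20 from DN1 to DN2 (adjusted p = 6.96e-04) and by 1.93 from DN2 to DN3 (adjusted p = 9.39e-07). Dtx1 rose by 1.51 (adjusted p = 4.82e-05) and 1.46 (adjusted p = 1.51e-05) over the same steps. The steps of Ikzf2 there were -0.55, which did not pass, and 1.13, which did. Between DN1 and DN4 the difference was -0.15 (adjusted p = 0.811) for Ikzf1 and 0.12 (adjusted p = 0.832) for Ikzf3.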

How the data were processed

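For each of 41345 probe sets the authors deposited a log2 signal from RMA in oligo, per the submitters' processing notes; tool versions are not given in the sources used here. No value was missing, and the signals entered the tests unaltered. The 17824 probe sets with several or no gene symbols were left out. Gene names come from the platform annotation and chromosomes from RefSeq.

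Comparisons used limma 3.58.1 in R 4.3.3 (two-sided, Benjamini-Hochberg over 22180 genes, adjusted p under 0.05): 3 lymphoma values (means of 5 fractions per replicate number) against 3 LSK arrays, each fraction against LSK, and 1 model of the 15 lymphoma arrays. The code was checked on simulated data. The number of arrays limits the precision. The labels do not state that equal replicate numbers share an animal, and the tests treat the arrays as unpaired.

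The members, lists and rules were chosen with earlier results of these data known. Named genes are the members, the 3 genes with the highest r over the 18 arrays for each (for Ikzf2 also over the 15 lymphoma arrays; predicted genes left out), and the 3 genes of each list with the smallest adjusted p in the lymphoma comparison and in the F test. Others, such as Mta2, Hdac1, Ddb1, Ppp1cc, Jchain, Ms4a1, Notch1, Notch3 and Hes1, were named after their values were seen. Alternatives tried: keeping genes that exceed the median of their array on 3 or more arrays, quantile normalization, averaged probe sets, a trended and robust prior, the replicate block, all 18 arrays in 1 model, omitted fractions and omitted replicates. LSK array 1 as the only LSK array was chosen after seeing the data.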

Additional observations from a re-analysis of the deposited data

Results flagged for a closer look

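Ikzf2 stood out because its difference from LSK is not the same in every fraction. The test of the difference itself, the F test over the 5 fractions, gave an adjusted p = 8.54e-04 by limma. Between pairs of fractions the differences called were 1.13 for DN3 minus DN2, 1.35 for DN4 minus DN2 and 0.80 for DN4 minus DN1 (log2, 3 against 3 arrays). All 3 DN3 arrays and all 3 DN4 arrays lay above all 3 DN2 arrays. Arrays did not overlap in these pairs for 16.2% and 19.5% of all genes. Groups of 3 arrays are too small to call a single array an outlier. Fits that left out 1 array show only how far a call rests on it.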

How the results depend on the processing

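The directions and calls of Ikzf1, Ikzf2 and Ikzf3 against LSK held under every alternative run on the lymphoma mean, with ranges over omitted replicates of 0.85 to 0.99, 1.03 to 1.34 and 5.07 to 5.30. With LSK array 1 as the only LSK array they were 0.87, 1.14 and 4.98. This fit assumes that the lone array varies like the lymphoma values. Ikzf5 ranged from -0.43 to -0.31 over omitted replicates and lost its call without CLP (-0.29). Ikzf4, never called in this comparison, ranged from -0.21 to 0.091 over omitted replicates and changed sign without DN3 (8.59e-05), without DN4 (0.029) and without lymphoma replicate 1 (0.091). The F test of Ikzf2 ranged from adjusted p = 3.94e-05 to 0.00588 over omitted arrays. Ikzf2 in DN1 minus CLP ranged from -0.34 to 0.13, turning sign without CLP replicate 1.

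Genes called in the lymphoma comparison numbered 4634 to 6825 over omitted replicates. Calls summed over the 10 pairs were 7004, and 5669 to 10897 over omitted arrays, the highest without CLP replicate 1. The members' calls were 3 of 50, and 2 to 6. Calls summed over the 5 comparisons with LSK were 25295, and 15480 with LSK array 1 alone. There the CLP calls of Ikzf1 (adjusted p = 0.303), Ikzf2 (0.259) and Ikzf5 (0.294) were lost, and the partner list had 2 calls. With the replicate block, 6342 genes were called in the lymphoma comparison and 2036 in the F test (6425 and 1748 without). For the members the block changed 2 calls: Ikzf2 in DN2 minus LSK passed (adjusted p = 0.0273) and Ikzf5 in CLP minus LSK did not (0.0618). Deviations of same-numbered fraction arrays had r from -0.27 to 0.50, above 0.1 in 21 of 30 cases, and 13 of 15 lymphoma arrays correlated best with their own number. Whether same-numbered fractions share an animal was not tested, and the labels do not say. Between LSK and the fractions 6 of 15 cases were above 0.1. The trended and robust prior also ended the CLP call of Ikzf5 (0.0530), and the filter on dim genes brought in Ikzf4 in DN4 (adjusted p = 0.0421). The causes were not tested.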

Other observations

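Genes next to the members on the chromosome, by RefSeq order, did not share the large step of Ikzf3. Of its neighbours, Grb7 differed by 0.09 (SE 0.11, adjusted p = 0.565) between the lymphoma mean and LSK, and Zpbp2 by 0.60 (SE 0.10, adjusted p = 0.00188), from 5.13 to 5.73, both near background. Those of Ikzf2, Erbb4 and Spag16, were below background, at 4.02 to 4.53. Beside Ikzf5, Pstk rose by 0.69 (adjusted p = 0.00262) and Acadsb fell by 0.43 (adjusted p = 0.0135). Beside Ikzf4, Suox, an oxidase of sulfite, fell by 0.68 (adjusted p = 0.00531), and Rps26, a ribosomal protein gene, differed by -0.09 (adjusted p = 0.666). Beside Ikzf1, Spata48 rose by 0.44 (adjusted p = 0.0119) to 5.61, within the background range, and Fignl1 differed by 0.16 (adjusted p = 0.560). These neighbours were chosen by position and after the members' values were known.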
